A study of Mus musculus with 8 samples.

Results

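The genes described here are 34 genes for PPAR targets and fatty acid oxidation, taken by their names from an RNA sequencing table of mouse peritoneal macrophages. All 34 were found, each as 1 locus among the 23735 loci of the table, and 33 of them reached 1 RPKM in at least 2 of the 8 libraries and were tested. RPKM, reads per kilobase of transcript scaled by the mapped reads, corrects a gene's reads for transcript length and library depth, so levels can be compared between genes. The exception was Pdk4, which stayed below 1 RPKM in all libraries. By role, the list holds 6 genes of lipid uptake and storage, 2 of fuel switching and uncoupling, 4 acyl-CoA synthetases, 4 genes of the carnitine shuttle, 11 of mitochondrial beta-oxidation, 3 of electron transfer and 4 of peroxisomal oxidation and division.

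Peroxisome proliferator-activated receptors (PPARs) are nuclear receptors that bind fatty acids and pair with retinoid X receptors (RXRs) on DNA, where they switch on genes for taking up, storing and burning fat. A fatty acid that enters a cell is carried by a binding protein, joined to coenzyme A by a synthetase, moved into the mitochondrion as a carnitine ester and shortened by beta-oxidation, whose electrons pass through electron transfer flavoprotein to the respiratory chain. Resident macrophages burn fatty acids, and macrophages activated by lipopolysaccharide (LPS), the cell wall component of Gram-negative bacteria sensed by TLR4, shift toward glycolysis. MED1 is the Mediator subunit through which PPARs and other nuclear receptors contact the transcription machinery.

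The 4 groups were MED1 knockout macrophages (MED1ΔMac, labelled MED1-/- and called KO here) with LPS at 50 ng/mL for 6 h, KO macrophages left untreated, floxed control macrophages (MED1fl/fl, called WT as in the labels) with the same LPS treatment, and untreated WT macrophages. All cells came from 8-week-old C57BL/6J mice. Each group had 2 libraries, A and B, and values are given in that order. The sources used here do not give the Cre driver, the deleted exons, or whether a library was a separate animal or a pool, and the spread behind every p is that between libraries of a group, which may be technical.

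Estimated depth was 7.0 to 14.5 M mapped reads per library, at which a single read on a 1 kb transcript equals 0.069 to 0.142 RPKM. Med1 itself had 24.4 and 20.3 RPKM in LPS-treated KO and 17.6 and 23.4 RPKM in untreated KO, and 24.7 and 21.6 RPKM in LPS-treated WT and 21.7 and 24.8 RPKM in untreated WT. Averaged over both treatments, KO differed from WT by -0.12 (log2, SE 0.15, adjusted p = 0.999, limma), and this value over the whole locus does not measure loss of the deleted exons. Of 7 macrophage markers, 7 were above 1 RPKM in at least 2 libraries. Their summed level was 7158 and 6156 RPKM in LPS-treated KO and 11312 and 17884 RPKM in untreated KO. It was 19577 and 14956 RPKM in LPS-treated WT and 31634 and 35311 RPKM in untreated WT, but Lyz2 alone made up most of it, with 5111 and 4547 RPKM in LPS-treated KO, 8503 and 15001 RPKM in untreated KO, 17329 and 13231 RPKM in LPS-treated WT, and 28588 and 32317 RPKM in untreated WT. Without Lyz2 the other 6 markers summed to 2047 and 1609 RPKM in LPS-treated KO and 2809.6 and 2883 RPKM in untreated KO, and 2247 and 1725 RPKM in LPS-treated WT and 3046 and 2993 RPKM in untreated WT, lower with LPS in both genotypes and overlapping between LPS-treated KO and WT. The markers were not uniform: Emr1 had 454 and 454 RPKM in LPS-treated KO and 277 and 709 RPKM in untreated KO, and 449.7 and 424 RPKM in LPS-treated WT and 409 and 396 RPKM in untreated WT. Large peritoneal macrophage markers (8 of 8 at 1 RPKM or more in at least 2 libraries) summed to 795 and 1333 RPKM in LPS-treated KO. The sum was 729 and 2591 RPKM in untreated KO, 1507 and 2174 RPKM in LPS-treated WT, and 1033 and 1892 RPKM in untreated WT. These sums overlapped between treatments, but Fn1 made up most of them, with 537 to 1757 RPKM. Gata6 had 3.59 to 4.21 RPKM with LPS and 7.24 to 11.6 RPKM untreated, and Alox15 24.6 to 47.8 and 82.0 to 555 RPKM. Icam2 was also lower with LPS within each genotype. Selp was lower in KO but higher in WT, and Cxcl13 was higher in WT and overlapped in KO. Timd4, Prg4 and Fn1 overlapped in both genotypes. Fat cells also make Fabp4, Lpl, Cd36 and Angptl4, but of 9 adipocyte markers 0 reached 1 RPKM in 2 libraries, their sum was 0.273 to 1.78 RPKM, and Cfd, Cidec, Cidea, Lep and Pck1 were at 0 throughout. B cell markers, 7 of 8 of them at 1 RPKM or more in at least 2 libraries, summed to 1412 and 1018 RPKM in LPS-treated KO, 597 and 1808 RPKM in untreated KO, 612 and 424 RPKM in LPS-treated WT, and 648 and 603 RPKM in untreated WT. Mast cell markers (6 of 6) summed to 3.10 and 69.5 RPKM in LPS-treated KO, 0.304 and 166.9 RPKM in untreated KO, 24.5 and 87.0 RPKM in LPS-treated WT, and 0.835 and 73.4 RPKM in untreated WT, with B above A in each group. Neutrophil markers, 3 of the 6 measured at 1 RPKM or more in at least 2 libraries and Ngp at 0 throughout, summed to 79.3 and 133 RPKM in LPS-treated KO, 43.3 and 48.8 RPKM in untreated KO, 122 and 134 RPKM in LPS-treated WT, and 39.8 and 67.6 RPKM in untreated WT. Most of that sum was S100a8, and Camp had 9.83 to 27.5 RPKM in the LPS-treated libraries. S100a9 stayed at 0 to 5.63 RPKM, and Mpo and Elane were at 0 in every library except untreated KO B. The part of these cells in the results below was not tested, and in such bulk samples fewer cells of a type and less RNA per cell cannot be told apart.

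In untreated cells of both genotypes, 5 of the 6 uptake and storage genes had higher levels than any other gene of the list. Averaged over the 4 untreated libraries, Fabp5 led with 1329 RPKM, followed by Cd36 with 1017, Fabp4 with 632, Lpl with 497 and Plin2 with 268 RPKM. Ucp2 (115 RPKM), Acsl5 (76.9 RPKM) and Acadl (74.9 RPKM) came next, and the lowest were Acsl3 (5.59 RPKM), Pex11a (4.08 RPKM), Ehhadh (1.87 RPKM) and Pdk4 (0.321 RPKM). Summed over the tested and untested genes, the list came to 2440 and 1831 RPKM in LPS-treated KO and 5617 and 3416 RPKM in untreated KO. In WT it came to 2005 and 1313 RPKM with LPS and 5759 and 4156 RPKM without. Both LPS-treated libraries thus lay below both untreated ones in each genotype, and uptake and storage genes carried most of the sum.

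**Figure D1:**
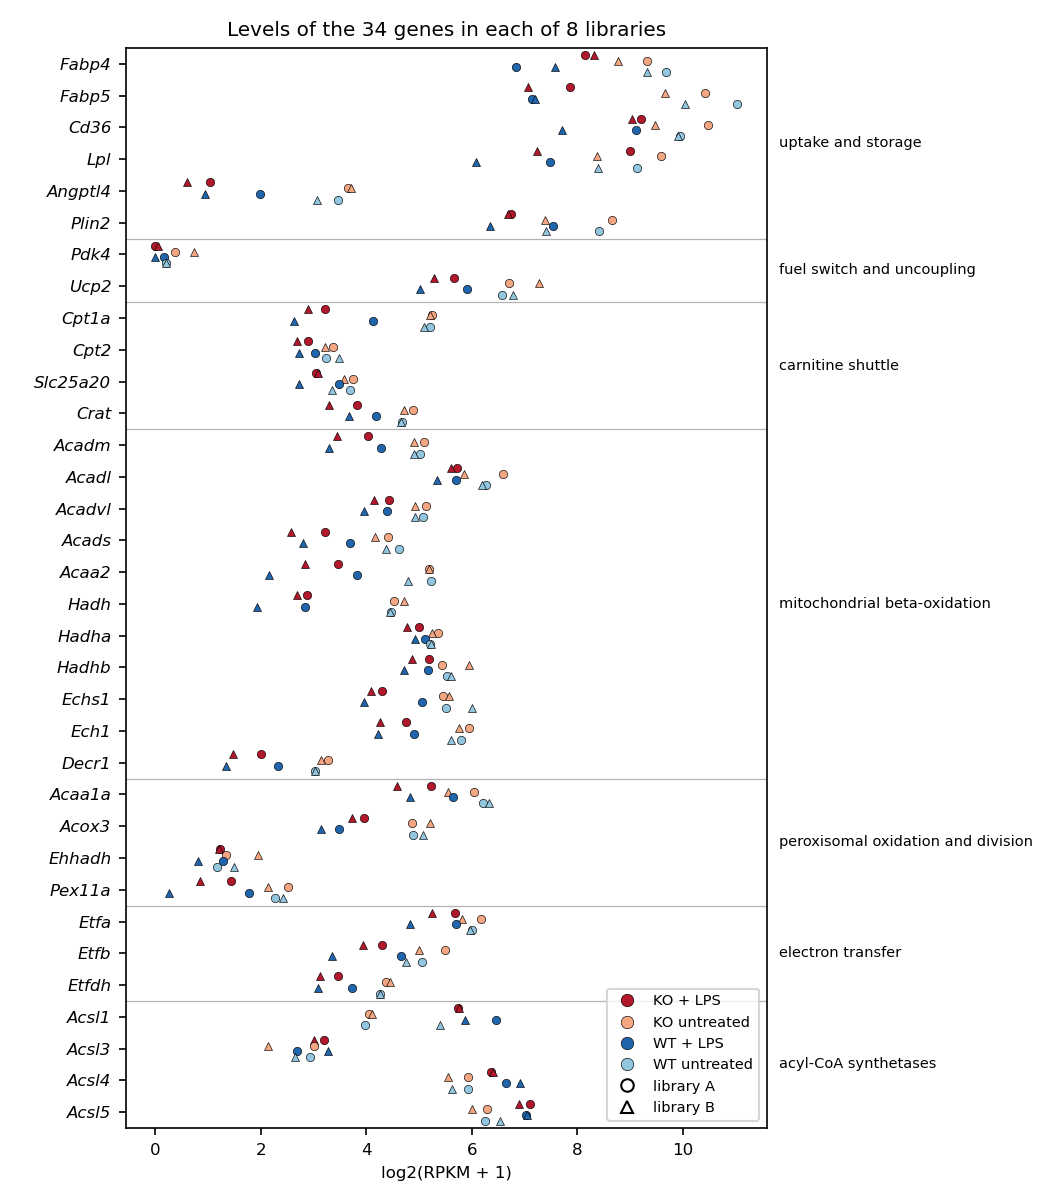
Levels of the 34 genes, as log2(RPKM + 1), in each of the 8 libraries. Colours give the group, circles library A and triangles library B. LPS-treated libraries lie left of untreated ones for most genes, and the 4 acyl-CoA synthetases at the bottom mostly show the opposite.

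The comparison of LPS-treated with untreated cells asked how activation changed these genes in each genotype. In KO, LPS lowered 9 of the 33 tested genes and raised 0 (limma on log2(RPKM + 1), Benjamini-Hochberg adjusted p under 0.05 over 11272 loci), where 6.62% of all loci passed, 3.31% in each direction. Unadjusted p was under 0.05 for 25 of the 33, where 3292 of the 11272 loci had such a p. Of these 25 genes, 3, all synthetases, had higher values. In WT, LPS lowered 5 and raised 1, where 6.31% of all loci passed, 3.14% downward and 3.17% upward. Fabp5, Angptl4, Hadh and Acox3 were called lower in both genotypes, and the share of all loci called lower in both was not computed. Called or not, 29 of the 33 had lower values in both genotypes, where 72.1% of all loci were lower in KO and 68.7% in WT, and the 4 acyl-CoA synthetases had higher ones.

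The median log2 change of the 33 genes was -1.12 in KO, against -0.28 for all tested loci, and -1.03 in WT, against -0.25. Median-ratio scaling brings the median of all loci to -0.01 in KO and 0.00 in WT. With it, the median of the genes was -0.83 in KO and -0.74 in WT. In KO 9 genes were then called lower and 2 higher (Acsl1 and Acsl5), where 6.87% of all loci were called. In WT 5 were called lower and 2 higher (Acsl1 and Acsl4), where 7.7% of all loci were called. Both LPS-treated libraries lay below both untreated ones for 28 of the 33 genes in KO, where 48.0% of all loci did so, and for 26 in WT, where 45.9% did so. The reverse held for 3 genes in each genotype, where 15.1% of all loci in KO and 18.2% in WT did so.

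With the letter fitted as a block, 19 genes were called in KO, 17 lower and 2 higher, where 14.3% of all loci were called, 9.04% lower and 5.25% higher. In WT the block gave 15 lower and 1 higher, where 16.1% of all loci were called, 10.4% lower and 5.71% higher. With the block 11 genes were called lower in both genotypes, and the share of all loci called so was not computed. With no filter, Angptl4 alone stayed called in KO, where 1.58% of all loci were called. In WT Fabp4, Fabp5, Hadh and Acox3 then stayed called, where 1.63% of all loci were. The calls also rested on single libraries. Leaving out 1 library, which leaves 1 in its group, moved the number of calls strongly in each genotype. Calls were lost without some libraries and gained without others, over all loci as well as among these genes. This dependence was therefore not particular to the list. The median in WT was -0.60 without LPS-treated WT B and -1.56 without LPS-treated WT A. The B library of LPS-treated WT lay below its A library for 28 of the 33 genes, where 76.7% of all loci did so. In LPS-treated KO this held for 29 genes, where 67.9% of all loci did so. In untreated KO it held for 24 genes (43% of all loci) and in untreated WT for 21 (47.8% of all loci).

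**Figure D2:**
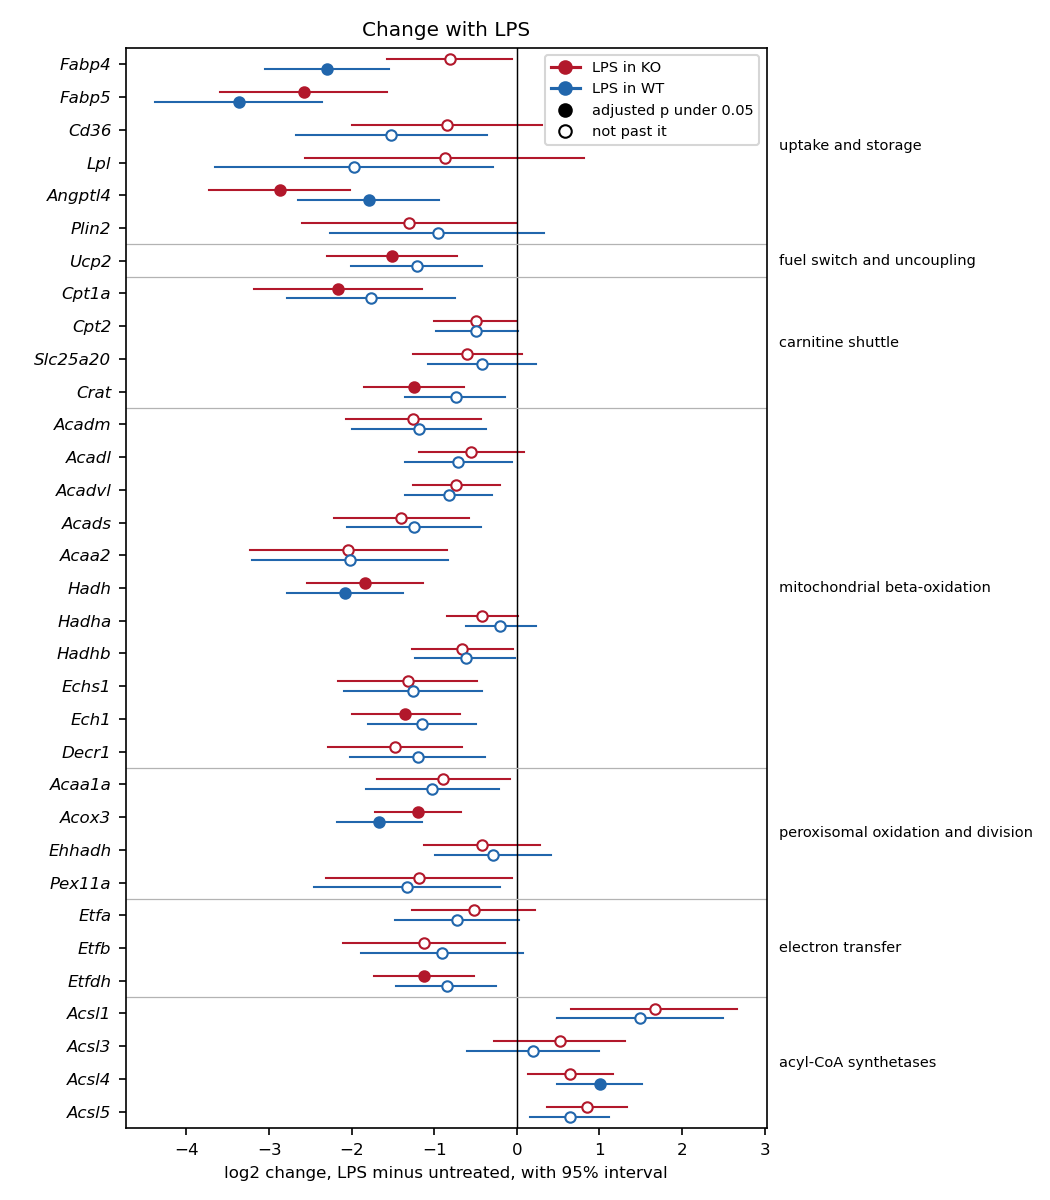
Log2 change with LPS for the 33 tested genes, in KO (red, upper of each pair) and in WT (blue, lower), with 95% intervals; filled points passed an adjusted p of 0.05. Nearly all points lie left of 0 except the acyl-CoA synthetases, and Fabp5 and Angptl4 hold the lowest values in WT and in KO.

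Promoters are shown for genes at successive steps of the pathway: Cpt1a, Acadm and Hadh, which had lower values with LPS, and Acsl4, which had higher ones. The windows run from 250 bases before to 50 bases after the annotated start, 5′ to 3′ on the strand of the gene, from RefSeq on GRCm38.p6. Capitals mark AGGTCA, the hexamer that PPAR and RXR dimers bind as a repeat, found on the other strand and therefore read as TGACCT.
Cpt1a (chr19:3323051-3323350, plus strand): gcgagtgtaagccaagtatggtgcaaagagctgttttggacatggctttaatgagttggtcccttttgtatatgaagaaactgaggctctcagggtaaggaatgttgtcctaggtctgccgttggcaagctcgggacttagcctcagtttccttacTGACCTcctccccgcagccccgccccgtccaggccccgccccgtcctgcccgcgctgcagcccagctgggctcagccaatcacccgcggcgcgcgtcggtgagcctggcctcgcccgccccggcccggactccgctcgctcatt
Acadm (chr3:153944594-153944893, minus strand): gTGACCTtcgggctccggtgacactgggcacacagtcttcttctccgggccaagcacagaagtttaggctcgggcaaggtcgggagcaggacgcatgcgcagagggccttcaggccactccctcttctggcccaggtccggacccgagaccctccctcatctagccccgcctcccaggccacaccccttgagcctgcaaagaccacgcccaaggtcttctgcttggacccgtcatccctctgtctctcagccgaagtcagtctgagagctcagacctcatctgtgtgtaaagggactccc
Hadh (chr3:131272052-131272351, minus strand): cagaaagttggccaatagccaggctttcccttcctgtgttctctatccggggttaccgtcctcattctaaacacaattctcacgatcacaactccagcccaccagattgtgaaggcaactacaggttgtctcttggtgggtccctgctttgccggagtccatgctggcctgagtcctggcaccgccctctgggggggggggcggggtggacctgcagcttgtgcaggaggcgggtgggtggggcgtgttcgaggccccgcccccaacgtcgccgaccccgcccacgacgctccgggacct
Acsl4 (chrX:142390486-142390785, minus strand): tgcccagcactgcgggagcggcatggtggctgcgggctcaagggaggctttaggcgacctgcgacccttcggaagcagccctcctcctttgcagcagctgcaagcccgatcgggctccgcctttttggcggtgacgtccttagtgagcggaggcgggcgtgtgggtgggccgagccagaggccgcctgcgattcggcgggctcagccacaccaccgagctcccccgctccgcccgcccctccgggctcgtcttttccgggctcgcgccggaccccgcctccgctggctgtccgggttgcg

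The Cpt1a window held the hexamer 94 bases and the Acadm window 249 bases before the start, and the Hadh and Acsl4 windows held none. Windows were given for 27 of the 34 genes, 28 in all. The direct repeat of this hexamer with 1 base between its copies, searched on both strands, was in 0 of the 28 and in 0.0396% of 32851 mouse promoter windows, and a relaxed form with any letter in place of each T was in 0 and in 0.381%. The single hexamer AGGTCA, which is also part of the direct repeat, was in 6 of the 28 on either strand and in 16.3% of all windows. Besides Cpt1a and Acadm, these were the windows of Plin2, Cd36, Echs1 and Acadvl. A match is a run of letters and was not tested as a binding site. No window was used for Fabp4, Fabp5, Lpl, Angptl4, Crat, Decr1 and Acaa2.

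Among the 6 uptake and storage genes, Fabp5 and Angptl4 fell with LPS in both genotypes and Fabp4 in WT. Fabp5, the epidermal-type fatty acid binding protein, had 230.2 and 133 RPKM in LPS-treated KO and 1367 and 804 RPKM in untreated KO, and 139 and 146 RPKM in LPS-treated WT and 2091 and 1053 RPKM in untreated WT. Each LPS-treated library lay far below each untreated one, and the LPS-treated libraries of both genotypes overlapped. Its mean was 5.98-fold lower with LPS in KO and 11.0-fold lower in WT, with log2 changes of -2.58 (SE 0.43, adjusted p = 0.0222) and -3.37 (SE 0.43, adjusted p = 0.0134). Fabp4, the adipocyte-type binding protein and a classic PPAR gamma target, had 280.2 and 318 RPKM in LPS-treated KO and 634 and 435 RPKM in untreated KO, and 113 and 189 RPKM in LPS-treated WT and 817 and 642 RPKM in untreated WT. The groups did not overlap in either genotype, and the LPS-treated KO libraries stayed above the LPS-treated WT ones. Fabp4 fell in WT by 2.30 on the log2 scale (SE 0.32, adjusted p = 0.0156), while its change in KO was -0.81 (adjusted p = 0.147). Fabp4 and Fabp5 lie 187739 bases apart on chromosome 3 (mm9, GENCODE vM1: Fabp4 at 10204347 to 10208576, minus strand, and Fabp5 at 10012548 to 10016607, plus strand).

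Angptl4, a secreted inhibitor of lipoprotein lipase that PPARs induce, had 1.04 and 0.511 RPKM in LPS-treated KO and 11.6 and 12.2 RPKM in untreated KO. In WT it had 2.98 and 0.928 RPKM with LPS and 10.0 and 7.35 RPKM without. All 4 LPS-treated libraries lay below all 4 untreated ones. Its mean was 15.3-fold lower with LPS in KO and 4.44-fold lower in WT. On the log2(RPKM + 1) scale, which understates changes of such low values, Angptl4 fell by 2.87 in KO (adjusted p = 0.012) and by 1.79 in WT (adjusted p = 0.0354). The WT call was lost without any single KO library, without untreated WT A or B, and without LPS-treated WT B, as well as with a pseudocount of 0.1 and with no filter.

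Cd36, the surface receptor that takes up fatty acids and oxidised lipoproteins, had 593 and 524 RPKM in LPS-treated KO and 1415 and 712 RPKM in untreated KO, and 550.3 and 209 RPKM in LPS-treated WT and 983 and 959.7 RPKM in untreated WT. Lpl, the lipoprotein lipase that frees fatty acids from triglyceride, had 507 and 149 RPKM in LPS-treated KO and 768 and 331 RPKM in untreated KO, and 178 and 66.8 RPKM in LPS-treated WT and 557 and 333 RPKM in untreated WT. Plin2, the coat protein of lipid droplets, had 106 and 103 RPKM in LPS-treated KO and 401 and 166 RPKM in untreated KO, and 185 and 80.1 RPKM in LPS-treated WT and 338 and 168 RPKM in untreated WT. Library A and library B differed widely for these genes, and for Lpl in KO and Plin2 in WT the LPS-treated and untreated libraries overlapped. None of the 3 passed in either genotype: log2 changes in KO and WT were -0.85 and -1.52 for Cd36 (adjusted p = 0.281 and 0.101), -0.87 and -1.97 for Lpl (0.432 and 0.127), and -1.30 and -0.96 for Plin2 (0.168 and 0.282). With the letter blocked, Cd36 (adjusted p = 0.0335) and Lpl (adjusted p = 0.00607) passed as lower in WT and Plin2 (adjusted p = 0.0357) in KO.

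Ucp2, a carrier of the inner mitochondrial membrane, fell in KO. Its values were 49.8 and 38.2 RPKM in LPS-treated KO and 103 and 154 RPKM in untreated KO, a log2 change of -1.51 (SE 0.34, adjusted p = 0.0452). In WT they were 58.9 and 31.5 RPKM with LPS and 94.3 and 109 RPKM without, a log2 change of -1.21 (adjusted p = 0.0732). LPS-treated and untreated libraries did not overlap in either genotype. Pdk4, the kinase that shuts pyruvate out of the Krebs cycle and a standard PPAR target in muscle and liver, was near the limit of detection: it had 0 and 0.0334 RPKM in LPS-treated KO, 0.295 and 0.670 RPKM in untreated KO, 0.126 and 0 RPKM in LPS-treated WT and 0.160 and 0.160 RPKM in untreated WT. From the steps of its low values, these stood for an estimated 0 and 1 reads in LPS-treated KO, 15 and 18 in untreated KO, 5 and 0 in LPS-treated WT, and 5 and 6 in untreated WT, and no test was made.

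**Figure D3:**
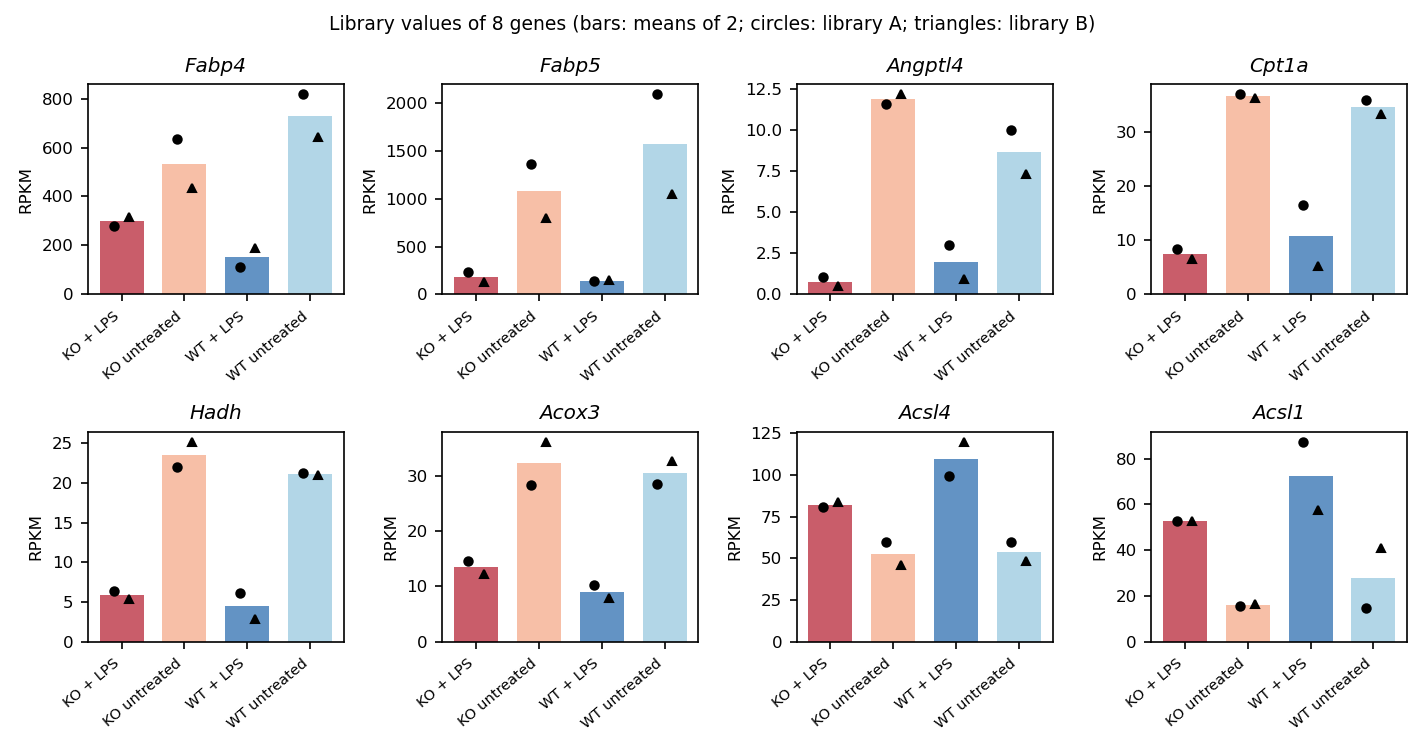
RPKM of 8 genes in each library, with bars at the mean of the 2 libraries of a group, circles for library A and triangles for library B. Fabp4, Fabp5, Angptl4, Cpt1a, Hadh and Acox3 were lower with LPS in both genotypes, while Acsl4 and Acsl1 were higher.

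The 4 carnitine shuttle genes had lower values with LPS, and 2 of them, Cpt1a and Crat, fell in KO. Over all loci, 72.1% were lower in KO and 68.7% in WT, and 3.31% were called lower in KO. In WT 0 passed (limma), and 2 had an unadjusted p under 0.05, as 3300 of the 11272 loci did. Cpt1a, the carnitine palmitoyltransferase of the outer membrane that sets the pace of fatty acid entry (promoter shown above), had 8.34 and 6.49 RPKM in LPS-treated KO and 36.9 and 36.1 RPKM in untreated KO, and 16.5 and 5.20 RPKM in LPS-treated WT and 35.8 and 33.2 RPKM in untreated WT. The untreated libraries were nearly level, while LPS-treated WT A was the highest of the LPS-treated libraries. Cpt1a averaged 7.41 ± 1.31 RPKM in LPS-treated KO and 36.5 ± 0.509 RPKM in untreated KO (SD, n = 2 each; log2 -2.16, adjusted p = 0.0348). Its log2 change in WT was -1.77 (adjusted p = 0.0555; 0.0206 with the letter blocked). Crat, the carnitine acetyltransferase that buffers acetyl-CoA, had 13.1 and 8.76 RPKM in LPS-treated KO and 28.4 and 25.4 RPKM in untreated KO, and 17.2 and 11.7 RPKM in LPS-treated WT and 24.6 and 24.1 RPKM in untreated WT. It fell in KO (log2 -1.25, SE 0.26, adjusted p = 0.0377), and its change in WT was -0.74 (adjusted p = 0.116). The inner membrane partners had smaller changes, none past the threshold: Cpt2, the second palmitoyltransferase, had a change of -0.50 in KO and -0.49 in WT, and Slc25a20, the acylcarnitine carrier, had -0.60 in KO and -0.42 in WT. Their adjusted p was 0.167 in KO and 0.177 in WT for Cpt2, and 0.199 in KO and 0.344 in WT for Slc25a20. The sum over the 4 genes was 35.1 and 28.2 RPKM in LPS-treated KO and 87.1 and 80.8 RPKM in untreated KO, and 51.0 and 28.1 RPKM in LPS-treated WT and 80.7 and 76.8 RPKM in untreated WT.

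Mitochondrial beta-oxidation had lower values with LPS in all 11 genes in both genotypes. Over all loci, 72.1% were lower in KO and 68.7% in WT. Median log2 changes of the 11 genes were -1.32 in KO and -1.18 in WT. Of the 11, 2 passed in KO and 1 in WT, where 3.31% and 3.14% of all loci were called lower. With the letter blocked, 8 passed in KO and 7 in WT, where 9.04% and 10.4% of all loci were called lower. Hadh, the 3-hydroxyacyl-CoA dehydrogenase for medium and short chains, had 6.32 and 5.41 RPKM in LPS-treated KO and 22.0 and 25.2 RPKM in untreated KO, and 6.14 and 2.82 RPKM in LPS-treated WT and 21.2 and 21.0 RPKM in untreated WT. No LPS-treated library came near an untreated one. It fell by 1.84 in KO (log2, SE 0.30, adjusted p = 0.0208) and by 2.08 in WT (SE 0.30, adjusted p = 0.0164). Ech1, an isomerase for unsaturated chains, had 25.8 and 18.2 RPKM in LPS-treated KO and 60.5 and 53.1 RPKM in untreated KO, and 28.8 and 17.6 RPKM in LPS-treated WT and 54.5 and 47.8 RPKM in untreated WT. Its groups were apart in both genotypes, and it passed in KO (log2 -1.35, adjusted p = 0.0378) but not in WT (-1.15, adjusted p = 0.0551; 0.0126 with the block).

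The acyl-CoA dehydrogenases, which start each round of beta-oxidation, are divided by chain length. Acadm, the medium-chain enzyme (promoter above), had 15.4 and 9.93 RPKM in LPS-treated KO and 33.3 and 28.9 RPKM in untreated KO, and 18.4 and 8.77 RPKM in LPS-treated WT and 31.6 and 29.0 RPKM in untreated WT. Acads, the short-chain enzyme, had 8.25 and 4.95 RPKM in LPS-treated KO and 20.4 and 16.8 RPKM in untreated KO. In WT it had 12.0 and 5.95 RPKM with LPS and 23.6 and 19.7 RPKM without. Its locus also carries Gm13826, whose reads cannot be told apart from it. Acadvl, the very long-chain enzyme, had 20.6 and 16.7 RPKM in LPS-treated KO and 34.1 and 29.3 RPKM in untreated KO, and 20.0 and 14.5 RPKM in LPS-treated WT and 32.7 and 29.2 RPKM in untreated WT. For each of these enzymes both LPS-treated libraries lay below both untreated ones in both genotypes. Their log2 changes in KO and WT were -1.26 and -1.18 for Acadm, -1.40 and -1.25 for Acads, and -0.74 and -0.82 for Acadvl, with adjusted p between 0.0576 (Acads in KO) and 0.0895 (Acadvl in KO), none past the threshold. With the letter blocked all 3 passed in both genotypes, with adjusted p between 0.0125 (Acads in KO) and 0.0362 (Acadvl in KO). Acadl, the long-chain enzyme, had the highest level of the 4 and had a change of -0.55 in KO (adjusted p = 0.222) and -0.71 in WT (adjusted p = 0.142).

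Further along the cycle, the hydratase Echs1 had 18.7 and 16.1 RPKM in LPS-treated KO and 42.9 and 46.5 RPKM in untreated KO, and 32.3 and 14.5 RPKM in LPS-treated WT and 44.9 and 62.9 RPKM in untreated WT. The thiolase Acaa2 (chromosome 18), which cuts off acetyl-CoA, had 9.98 and 6.19 RPKM in LPS-treated KO and 35.6 and 35.6 RPKM in untreated KO, and 13.2 and 3.44 RPKM in LPS-treated WT and 36.5 and 26.8 RPKM in untreated WT. Decr1, the dienoyl-CoA reductase for unsaturated chains, had 2.99 and 1.77 RPKM in LPS-treated KO and 8.67 and 7.81 RPKM in untreated KO, and 4.04 and 1.53 RPKM in LPS-treated WT and 7.20 and 7.18 RPKM in untreated WT. LPS-treated and untreated libraries did not overlap for these genes, and LPS-treated WT B was the lowest library for each of them. Log2 changes in KO and WT were -1.32 and -1.26 for Echs1, -2.04 and -2.02 for Acaa2, and -1.47 and -1.20 for Decr1, with adjusted p from 0.0514 (Decr1 in KO) to 0.0795 (Decr1 in WT). With the letter blocked, Echs1 passed in KO (adjusted p = 0.0493), and Acaa2 (0.0166 in KO and 0.0151 in WT) and Decr1 (0.0213 and 0.0353) in both.

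The subunits of the trifunctional protein, which handles long chains on the inner membrane, did not pass in either genotype, and Hadha had the smallest change by value of the 11 beta-oxidation genes in both. Hadha, its alpha subunit, had 31.2 and 26.4 RPKM in LPS-treated KO and 40.2 and 37.1 RPKM in untreated KO, and 33.4 and 29.4 RPKM in LPS-treated WT and 35.9 and 36.2 RPKM in untreated WT. Hadhb, its beta subunit, had 35.7 and 28.0 RPKM in LPS-treated KO and 42.1 and 60.6 RPKM in untreated KO, and 35.1 and 25.1 RPKM in LPS-treated WT and 45.1 and 47.6 RPKM in untreated WT. LPS-treated libraries lay below untreated ones in both genotypes, by small margins for Hadha. The log2 changes in KO and WT were -0.42 and -0.20 for Hadha (adjusted p = 0.179 and 0.497) and -0.66 and -0.62 for Hadhb (0.146 and 0.162); with median-ratio scaling the Hadha value in WT was 0.09. These genes lie head to head on chromosome 5: in mm9 Hadha (30444841 to 30481702, minus strand) and Hadhb (30481788 to 30511133, plus strand) are 85 bases apart. No test of Hadha or Hadhb against the other enzymes was made.

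Electrons from beta-oxidation pass to the flavoprotein made of Etfa and Etfb and then to its dehydrogenase Etfdh. Etfdh had 10.0 and 7.68 RPKM in LPS-treated KO and 19.8 and 20.9 RPKM in untreated KO, and 12.3 and 7.46 RPKM in LPS-treated WT and 18.2 and 18.2 RPKM in untreated WT. Etfb had 18.6 and 14.4 RPKM in LPS-treated KO and 43.9 and 30.8 RPKM in untreated KO, and 24.2 and 9.18 RPKM in LPS-treated WT and 32.4 and 26.0 RPKM in untreated WT. Both genes had their LPS-treated libraries below their untreated ones. Etfdh fell in KO (log2 -1.12, SE 0.26, adjusted p = 0.0477, lost with a pseudocount of 0.1, with no filter and without the variance trend), and its change in WT was -0.85 (adjusted p = 0.0846). Etfb had a change of -1.12 in KO (adjusted p = 0.133; 0.0382 with the block) and -0.91 in WT (adjusted p = 0.198), and Etfa had -0.52 in KO (adjusted p = 0.301) and -0.72 in WT (adjusted p = 0.182). In WT, 0 of the 3 passed (limma), and 1 had an unadjusted p under 0.05, as 3300 of the 11272 loci did.

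Of the peroxisomal genes, Acox3 fell in both genotypes. Acox3, an acyl-CoA oxidase for branched chains, had 14.5 and 12.3 RPKM in LPS-treated KO and 28.3 and 36.1 RPKM in untreated KO, and 10.2 and 7.81 RPKM in LPS-treated WT and 28.5 and 32.6 RPKM in untreated WT. The untreated libraries of both genotypes overlapped, while each LPS-treated library held less than each untreated one. Acox3 fell by 1.20 in KO (log2, SE 0.22, adjusted p = 0.0274) and by 1.67 in WT (SE 0.22, adjusted p = 0.0149). Acaa1a, the peroxisomal thiolase, had 36.5 and 22.8 RPKM in LPS-treated KO and 64.5 and 45.6 RPKM in untreated KO, and 49.1 and 27.5 RPKM in LPS-treated WT and 73.5 and 78.7 RPKM in untreated WT. Its log2 changes were -0.89 in KO (adjusted p = 0.142) and -1.03 in WT (adjusted p = 0.106; 0.0335 with the block), and its values are uncertain where reads could also come from its near-identical copy Acaa1b. Pex11a, a factor of peroxisome division, had a change of -1.18 in KO (adjusted p = 0.155) and -1.33 in WT (adjusted p = 0.123), with a low of 0.194 RPKM in LPS-treated WT B. Ehhadh, the peroxisomal bifunctional enzyme, stayed between 0.749 and 2.84 RPKM over all libraries and did not pass in either genotype (log2 -0.42 in KO and -0.29 in WT).

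The acyl-CoA synthetases, which join fatty acids to coenzyme A for burning, storage or membrane lipids, had higher values with LPS. Acsl4, which prefers arachidonic acid (promoter above), had 80.9 and 83.5 RPKM in LPS-treated KO and 59.9 and 45.7 RPKM in untreated KO, and 99.2 and 119.9 RPKM in LPS-treated WT and 59.8 and 48.3 RPKM in untreated WT. It was higher in each LPS-treated library than in each untreated one, rising in WT by 1.01 (log2, SE 0.22, adjusted p = 0.0422), with 0.64 in KO (adjusted p = 0.114). Acsl1, which serves oxidation and lipid synthesis, had 52.7 and 52.9 RPKM in LPS-treated KO and 15.6 and 16.3 RPKM in untreated KO, and 87.5 and 57.7 RPKM in LPS-treated WT and 14.8 and 40.9 RPKM in untreated WT. Untreated WT B stood well above the other untreated libraries, and the log2 changes were 1.67 in KO (adjusted p = 0.0625; 0.043 with the block) and 1.49 in WT (adjusted p = 0.0786). Acsl5, found on mitochondria and the endoplasmic reticulum, had 137 and 118 RPKM in LPS-treated KO and 77.4 and 63.2 RPKM in untreated KO, and 129 and 131 RPKM in LPS-treated WT and 75.5 and 91.6 RPKM in untreated WT. Its groups did not overlap, with log2 changes of 0.85 in KO (adjusted p = 0.0538; 0.0347 with the block) and 0.64 in WT (adjusted p = 0.0971). Acsl3 had changes of 0.52 in KO and 0.20 in WT, neither past the threshold, and its locus also carries Utp14b, whose reads cannot be told apart from it. Summed, the 4 loci held 278 and 261 RPKM in LPS-treated KO and 160.0 and 129 RPKM in untreated KO, and 322 and 318 RPKM in LPS-treated WT and 157 and 186 RPKM in untreated WT.

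The receptors themselves were measured alongside. Pparg, the PPAR gamma gene, had 0.429 and 0.208 RPKM in LPS-treated KO and 6.22 and 1.32 RPKM in untreated KO, and 0.593 and 0.397 RPKM in LPS-treated WT and 4.58 and 1.21 RPKM in untreated WT. All LPS-treated libraries were below 1 RPKM and all untreated ones above it, and the untreated A libraries held well above the untreated B ones. Its log2 changes of -1.64 in KO (adjusted p = 0.127; 0.0413 with the block) and -1.23 in WT (adjusted p = 0.213) did not pass. Ppard, the PPAR delta gene, had 36.0 and 36.1 RPKM in LPS-treated KO and 21.8 and 13.3 RPKM in untreated KO, and 30.9 and 32.5 RPKM in LPS-treated WT and 17.9 and 25.0 RPKM in untreated WT. It was thus higher in every LPS-treated library, with log2 changes of 1.03 in KO (adjusted p = 0.0634; 0.0476 with the block) and 0.56 in WT (adjusted p = 0.213). Rxra, the main RXR partner, had 14.1 and 13.1 RPKM in LPS-treated KO and 37.1 and 29.1 RPKM in untreated KO, and 20.9 and 13.4 RPKM in LPS-treated WT and 41.2 and 33.2 RPKM in untreated WT. It fell in KO (log2 -1.21, SE 0.26, adjusted p = 0.0394) and had a change of -1.09 in WT (adjusted p = 0.0516; 0.0135 with the block). Rxrb had changes of -0.53 in KO and -0.70 in WT, and the coactivator Ppargc1b had -1.50 in KO and -1.28 in WT, none past the threshold. Ppara, Rxrg and the coactivator Ppargc1a did not reach 1 RPKM in any library and were not tested.

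Beyond these, 118 of 119 further listed genes of lipid uptake, storage and oxidation were in the table and 85 were tested. In KO, LPS lowered 6 and raised 1, where 6.62% of all loci passed, and in WT it lowered 7 and raised 1, where 6.31% did. Median log2 changes were -0.68 in KO, against -0.28 over all loci, and -0.67 in WT, against -0.25. With the letter blocked the counts were 22 lower and 2 higher in KO, where 14.3% of all loci passed, and 25 lower and 1 higher in WT, where 16.1% did. Lower in both genotypes were the fatty acid transporter Slc27a6 (-2.30 in KO and -2.48 in WT), Oxct1, which burns ketone bodies (-1.91 and -1.77), Hibch of valine breakdown (-0.90 and -0.96), and the sterol 27-hydroxylase Cyp27a1 (-2.73 and -2.43). The peroxisomal genes Crot, a carnitine octanoyltransferase (-1.36), and Abcd2, a transporter of very long chains (-2.78), passed as lower in KO, and the lysosomal lipase Lipa (-1.95) and the propionate pathway genes Pccb (-1.14) and Mcee (-1.86) in WT. Raised were the heart-type binding protein Fabp3 in KO (2.43, adjusted p = 0.0161) and the fatty acid transporter Slc27a4 in WT (1.17, adjusted p = 0.0368). Fabp3 had 159.6 and 154 RPKM in LPS-treated KO and 37.5 and 21.3 RPKM in untreated KO, and 56.6 and 106 RPKM in LPS-treated WT and 35.3 and 42.6 RPKM in untreated WT, so that in KO Fabp3 rose with LPS while Fabp5 fell.

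The comparison of KO with WT asked whether losing MED1, a PPAR coactivator, changed these genes. With limma, 0 of the 33 genes passed in untreated cells, where 0.0266% of all loci did (3 loci), and 0 passed with LPS, where 0.00887% did (1 locus). Without the variance trend the counts were also 0. An unadjusted p was under 0.05 for 0 genes untreated, where 94 of the 11272 loci had one. With LPS it was for 2 genes (Fabp4 and Acox3), where 498 loci had one. Averaged over treatments it was for 0 genes, where 472 loci had one. In that average 0 of the 33 and 0.0355% of all loci passed the adjusted threshold. The median KO minus WT difference was 0.07 log2 untreated, the same as over all loci, and -0.03 with LPS, against 0.05 over all loci. Of the 33 genes, 2 had both untreated KO libraries below both untreated WT ones and 7 above, where 5.86% and 17.8% of all loci did so. With LPS these were 2 and 2 genes, where 11.7% and 18.7% of all loci did so.

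Widths of the intervals set what could be seen with 2 libraries a group. For untreated cells the 95% interval of the KO minus WT difference was -0.93 to 1.09 for Cpt1a, -0.55 to 0.85 for Hadh, -0.33 to 0.52 for Hadha, -1.11 to 1.20 for Cd36 and -1.46 to 1.91 for Lpl, on the log2 scale. A log2 difference of 1 in either direction thus lay outside the interval for Hadh and Hadha, while the intervals for Cpt1a, Cd36 and Lpl reached beyond 1. With LPS the intervals were -1.33 to 0.70 for Cpt1a, -0.31 to 1.09 for Hadh, -0.55 to 0.30 for Hadha, -0.44 to 1.87 for Cd36 and -0.36 to 3.01 for Lpl.

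Fabp4 had the smallest unadjusted p of the list with LPS. As given above, LPS-treated KO libraries had 280.2 and 318 RPKM and LPS-treated WT libraries 113 and 189 RPKM, which do not overlap, a mean 1.97-fold higher in KO. The log2 difference was 1.02 (SE 0.32, 95% interval 0.27 to 1.77, adjusted p = 1 in limma and 0.647 with the letter blocked), higher in KO in both letters. In untreated cells it lay the other way, at -0.46 (adjusted p = 1). Acox3 had a difference of 0.54 with LPS (SE 0.22, adjusted p = 1 in limma) and 0.07 untreated. Lpl, at 1.32 with LPS, had the largest difference but with an SE of 0.72.

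**Figure D4:**
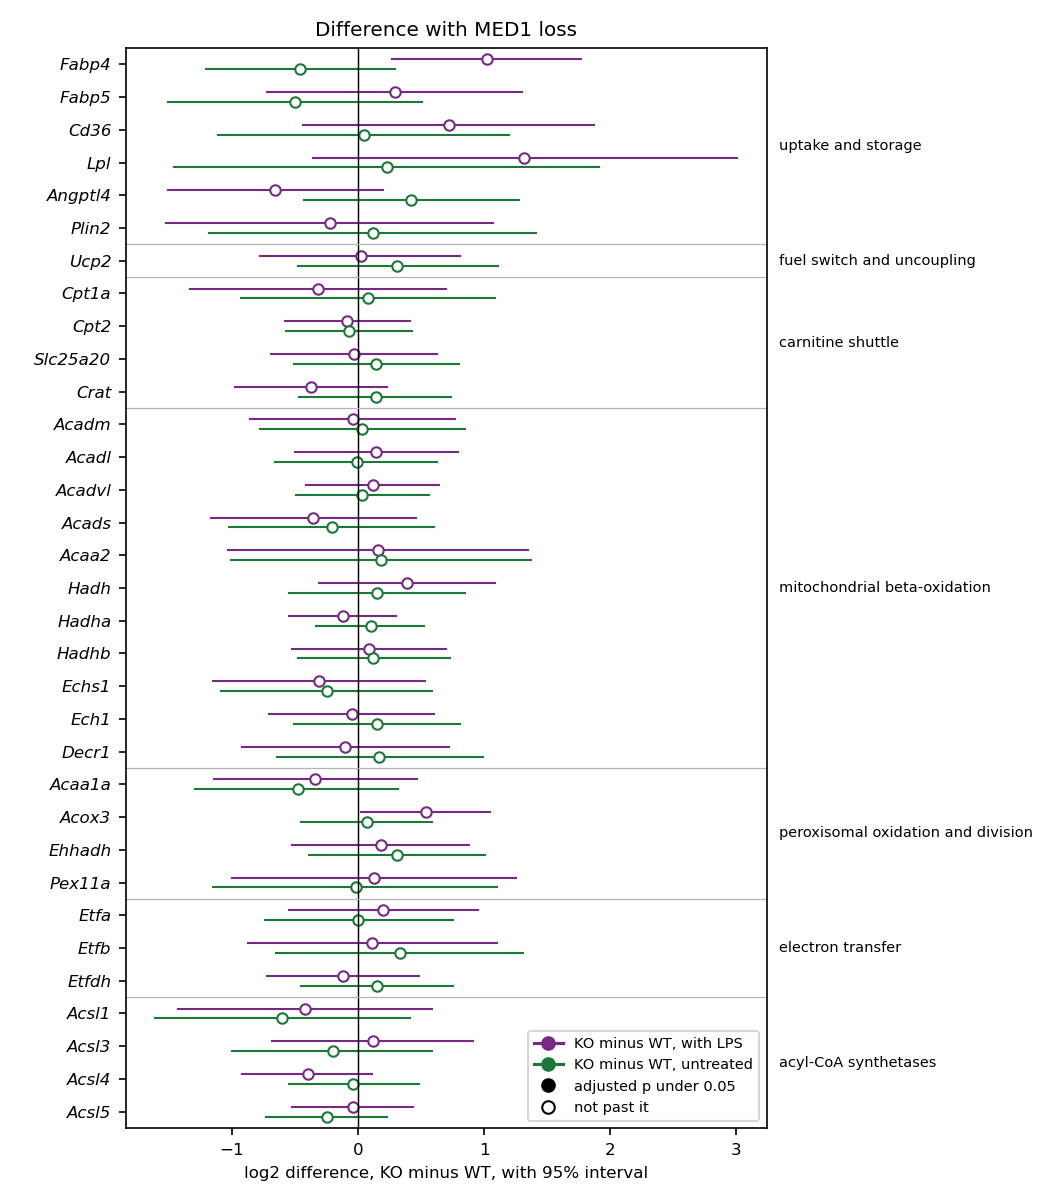
Log2 difference of KO minus WT for the 33 tested genes, with LPS (purple, upper of each pair) and untreated (green, lower), with 95% intervals; a filled point would mark an adjusted p under 0.05, and there is none. Points scatter on both sides of 0, and only the Fabp4 and Acox3 intervals with LPS lie clear of 0.

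Whether the LPS response itself differed between genotypes was tested as the change in KO minus that in WT. With limma 0 of the 33 genes passed, where 0.0355% of all loci did. The median of the genes was -0.04, against -0.03 over all loci. An unadjusted p was under 0.05 for Fabp4 alone, where 184 of the 11272 loci had one. For Fabp4 the difference of the changes was 1.48 (log2, SE 0.45, 95% interval 0.42 to 2.55, adjusted p = 1 in limma), its mean with LPS being 1.79-fold lower in KO and 4.82-fold lower in WT. Angptl4 had a difference of -1.08 (SE 0.52, adjusted p = 1 in limma), with the larger change in KO. Genes called with LPS in one genotype and not in the other, such as Cpt1a (-0.40, interval -1.83 to 1.04), Ucp2 (-0.30, interval -1.42 to 0.83) and Acsl4 (-0.37, interval -1.10 to 0.36), were therefore not shown to respond differently.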

How the data were processed

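RNA from 8 libraries was measured by RNA sequencing. The submitters' processing notes name bcl2fastq, TopHat2 2.0.14, Cufflinks 2.2.1 and the mm9 genome. The deposited values are RPKM per locus as the authors computed them; the sources used here give neither annotation nor strandedness. Of its 24192 lines, 457 were repeats of a locus with a second symbol and were dropped, leaving 23735 loci.

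A locus entered the tests when 2 or more libraries reached 1 RPKM (11272 loci). Values were fitted as log2(RPKM + 1) with limma 3.58.1 in R 4.3.3 (1 mean per group over all 8 libraries, variances following a trend, two-sided tests, Benjamini-Hochberg adjustment over all 11272 loci). Every adjusted p printed is from this limma fit unless a block is named, and a call is an adjusted p under 0.05. Python 3.11.15 was used for the rest. The fit was tested on simulated data. Mapped reads were estimated from the steps between low values and the transcript lengths of 452 genes with 1 transcript in GENCODE vM1 (quartiles 14.0 and 14.8 M for untreated KO A), since no counts were used here.

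The letters A and B were checked as a pairing: deviations of same-lettered libraries from their group means correlated with r between 0.20 and 0.41 across loci in all 6 pairs of groups. This comes from the data, as the labels do not say what the letters mean. Values with the letter as a block are printed where a call changed. The members, gene lists, naming rule and alternatives were chosen with earlier results of these data known. Values in every library are given for genes called in any fit with or without the block and for those naming a step; other members are given by their changes. Further pathway genes are named where called.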

Additional observations from a re-analysis of the deposited data

How the results depend on the processing

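Each LPS and MED1 result was recomputed with a pseudocount of 0.1, no filter, a filter at 5 RPKM, median-ratio scaling, quantile normalization, the letter as a replicate block, limma without the trend, and without each library in turn; a library left alone in its group is then assumed to vary like the others. Genes called with LPS in KO numbered 9, against 1 with no filter and 19 with the replicate block; leaving out a library gave 0 to 17. With LPS in WT they numbered 6, against 16 with the replicate block; leaving out a library gave 0 to 22. The counts for MED1 loss without LPS, with LPS and averaged, and for the genotype difference in the LPS response, were 0 in each of these settings, the block included. Direction reversed for Lpl with LPS in KO without LPS-treated KO B (0.01; -1.76 without LPS-treated KO A), for Hadha with LPS in WT under median-ratio scaling (0.09) and for Acsl3 with LPS in WT without LPS-treated WT B (-0.10; 0.49 without LPS-treated WT A). Over single genes and settings, 1253 values kept direction and side of the threshold, 159 lost and 75 gained a call. The share of all tested loci called moved between settings as well. With LPS in KO it was 6.62%, against 1.58% with no filter and 14.3% with the replicate block. With LPS in WT it was 6.31%, against 16.1% with the replicate block. Leaving out a library also moved this share, so the movement of the counts between settings was not particular to the list. The cause of these differences between settings was not tested. Depth limits Pdk4, which rests on at most 18 estimated reads in a library.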
